A study of Mus musculus with 12 samples.

Results

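The genes described here are a set of 34 genes of hypoxia and glycolysis, measured in mouse uterine epithelial and stromal cells that were cultured together and treated with estradiol (E2) or vehicle. Members were the listed genes that a probe set names as its only gene, each represented by its probe set with the highest mean over all 12 arrays. Of the 34, 31 had such a probe set, out of 19938 genes in the table, and 3 did not (Gpi1, Eno1 and Ca9, the last of which is described further on under its mouse symbol Car9). The members fell into 11 glycolytic enzymes, 3 glucose and lactate transporters, 3 regulators of glycolytic flux, 13 other targets of hypoxia-inducible factor (HIF) and Hif1a itself. The cells came from CD-1 mice on day 4 of pseudopregnancy, with epithelial sheets on matrigel-coated inserts above stromal cells on cover slips, and were kept overnight in hormone-depleted medium before 2 days of treatment. The 4 groups, of 3 arrays each, were the epithelial layer with E2 at 10 nM, the epithelial layer with vehicle (0.01% ethanol), the stromal layer with E2 at 10 nM and the stromal layer with vehicle. The layers were harvested apart after co-culture, and the sources used here do not give the animals or cultures behind each array.

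HIF is a transcription factor made of an oxygen-labile alpha subunit, such as the product of Hif1a, and a stable partner, the product of Arnt. When oxygen is plentiful, prolyl hydroxylases of the Egln family mark the alpha subunit for destruction, and when it is scarce HIF accumulates and switches on glucose uptake, glycolysis and genes that adapt cells to low oxygen. Much of this control acts on the HIF protein, which arrays do not measure. In the uterus, glycolysis and lactate production are known to rise in stromal cells as they form decidua, and estradiol is known to induce glucose metabolism and vascular genes.

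HIF binds a short core that reads ACGTG or GCGTG on either strand, and these letters were looked for in RefSeq promoter windows (GRCm38.p6) of 250 bases before to 50 bases after each annotated start. Windows were found for 28 of the 31 members, 42 windows in all. Bnip3l, Ndrg1 and Slc2a3 had none in the table. At least 1 match to either core was present in 33 of the 42 windows (78.6%), against 14380 of 32851 windows of all genes (43.8%). Windows of the same gene can overlap. Counted by gene, 26 of the 28 members had a match in any window (92.9%), against 12628 of 27025 genes (46.7%). ACGTG was in 52.4% of the members' windows and 19.6% of all windows, and GCGTG in 57.1% and 32.4%. Both cores hold the letters CG, and the members' windows held a median of 24.0 CG pairs against 7.0 in all windows, so these shares come from windows of unlike composition. A run of CACGTG counts as ACGTG on both strands, and neighbouring matches may share bases. The windows of 5 members with a single annotated start and a call described below are shown as examples. They are 3 that were higher with E2 in epithelium (Adm, Pgk1 and Tpi1) and 2 that were lower with E2 in stroma (Egln3 and Ddit4). Capitals mark matches to either core on either strand, CACGT and CACGC being the cores read on the opposite strand.
Adm, chr7:110627407-110627706 (plus strand): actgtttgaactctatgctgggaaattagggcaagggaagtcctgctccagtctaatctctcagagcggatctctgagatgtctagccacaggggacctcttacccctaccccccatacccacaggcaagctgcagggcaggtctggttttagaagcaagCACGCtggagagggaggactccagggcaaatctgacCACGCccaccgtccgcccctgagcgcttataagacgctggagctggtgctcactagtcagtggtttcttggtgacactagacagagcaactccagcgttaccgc
Pgk1, chrX:106186850-106187149 (plus strand): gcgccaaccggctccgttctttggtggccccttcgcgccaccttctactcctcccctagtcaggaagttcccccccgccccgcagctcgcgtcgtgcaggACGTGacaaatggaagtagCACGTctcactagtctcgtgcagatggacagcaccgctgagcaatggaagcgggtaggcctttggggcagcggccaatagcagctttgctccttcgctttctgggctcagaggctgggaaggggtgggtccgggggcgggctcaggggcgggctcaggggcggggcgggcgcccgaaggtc
Tpi1, chr6:124814109-124814408 (minus strand): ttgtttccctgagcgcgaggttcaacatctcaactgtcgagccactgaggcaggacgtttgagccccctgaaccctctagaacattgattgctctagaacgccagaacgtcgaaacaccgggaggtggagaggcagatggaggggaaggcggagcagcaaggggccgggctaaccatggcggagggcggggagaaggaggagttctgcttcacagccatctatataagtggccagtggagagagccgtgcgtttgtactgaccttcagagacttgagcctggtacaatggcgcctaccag
Egln3, chr12:54203825-54204124 (minus strand): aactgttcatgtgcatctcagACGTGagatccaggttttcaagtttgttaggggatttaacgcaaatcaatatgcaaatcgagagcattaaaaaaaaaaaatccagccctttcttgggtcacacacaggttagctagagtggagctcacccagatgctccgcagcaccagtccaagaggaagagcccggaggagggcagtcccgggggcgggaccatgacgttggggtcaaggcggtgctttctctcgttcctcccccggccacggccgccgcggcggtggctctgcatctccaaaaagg
Ddit4, chr10:59951721-59952020 (minus strand): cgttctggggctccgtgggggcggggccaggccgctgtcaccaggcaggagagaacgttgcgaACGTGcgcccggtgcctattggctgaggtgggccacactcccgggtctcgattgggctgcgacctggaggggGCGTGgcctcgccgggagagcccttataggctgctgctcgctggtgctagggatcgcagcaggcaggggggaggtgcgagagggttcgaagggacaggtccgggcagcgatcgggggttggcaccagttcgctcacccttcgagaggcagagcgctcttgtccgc
Adm, Pgk1 and Ddit4 each held 2 matches and Egln3 held 1, while the Tpi1 window held none of these letters. The windows of Vldlr, not shown, also held none. A match is a description of the letters and not of a bound site.

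Values were the authors' deposited log2 RMA signals, from the Affymetrix Mouse Gene 1.0 ST array, and a difference of 1 is a 2-fold ratio of those signals. Array medians over the 23410 probe sets with a gene symbol, all of which were tested, lay between 7.38 and 7.43, and 3 arrays per group limit the precision. Whether a value stood above background was not tested. Differences were tested with limma over all 12 arrays and adjusted by the Benjamini-Hochberg method over the 23410 probe sets, with an adjusted p under 0.05 as the threshold. Values after ± are standard errors of a difference unless SD is written, with n = 3 arrays per group, and arrays are given in the order of their replicate numbers.

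Some arrays stood apart. E2 arrays 1 and 2 were closer to each other than any other arrays of their layer were, with an SD of the difference between arrays of 0.165 in epithelium (0.273 to 0.529 among the other epithelial pairs) and 0.113 in stroma (0.178 to 0.248 among the other stromal pairs). Weights that limma estimated from each array's own spread were lowest for epithelial vehicle array 2 (0.120) and epithelial E2 array 3 (0.132), with up to 6.69 for the others. The epithelial layer carried its own markers, while the stromal list separated the layers less. Under vehicle, 18 of 18 epithelial markers such as Cdh1 and Epcam were past the threshold as higher in the epithelial layer, with a median difference of 4.08. Of 16 stromal markers, 8 passed as lower in the epithelial layer and 8 did not pass, and 6 of the 16 measured higher there. Stromal markers were nevertheless bright in the epithelial arrays, with a mean of 10.57 ± 0.04 under E2 and 10.08 ± 0.37 under vehicle, against 10.65 ± 0.09 under E2 and 10.68 ± 0.11 under vehicle in the stromal arrays (SD, n = 3, 16 genes). In bulk samples of this kind, fewer cells of a type and less RNA per cell cannot be told apart.

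In the epithelial layer, 14 of the 31 hypoxia and glycolysis genes rose with E2 by limma, among them enzymes, regulators and other HIF targets but no transporter. A fall was called in 0 members and 17 did not pass, where 1.77% of all probe sets tested rose and 1.12% fell (2.9% in either direction). At an unadjusted p under 0.05 these counts were 20 higher and 0 lower of the 31, against 1798 higher and 1993 lower of all 23410 probe sets (16.2% in either direction). The median difference of the members was 0.48, against 0.03 over all probe sets tested, and 28 of 31 measured higher. All 3 E2 arrays lay above all 3 vehicle arrays in 19 members, a pattern that 6.95% of all probe sets showed, and below them in 0, against 8.04%.

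**Figure D1:**
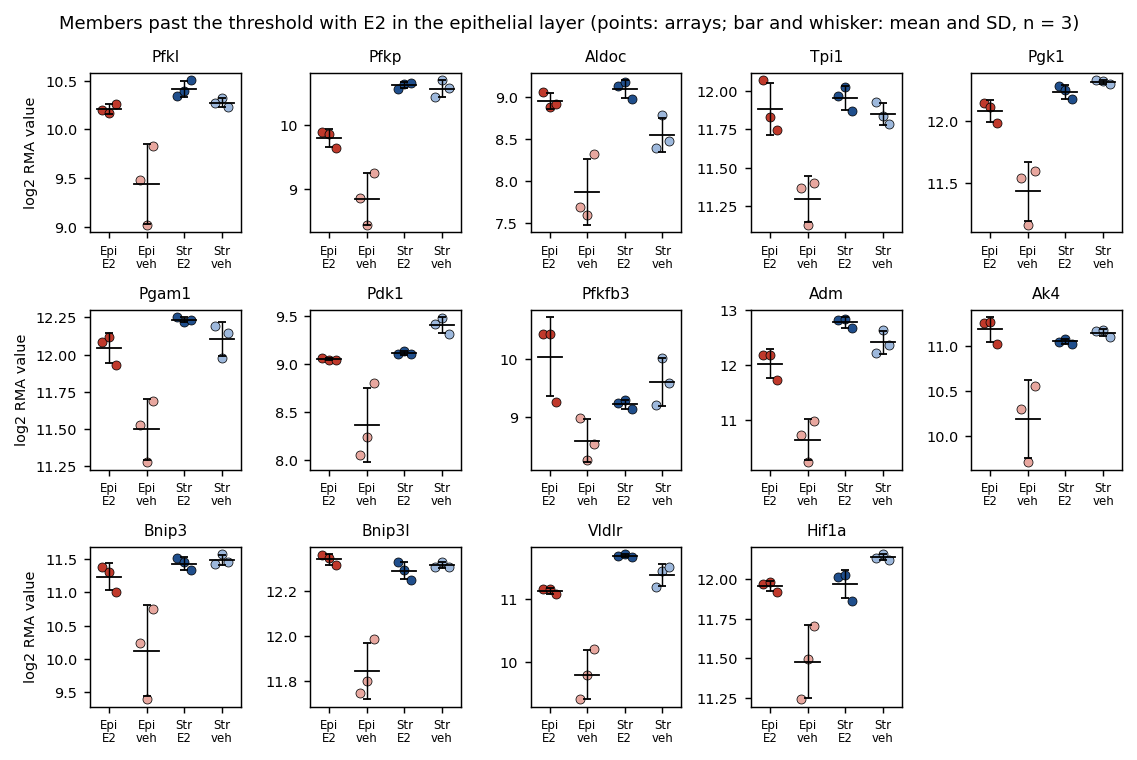
Log2 RMA values (vertical axes, a separate scale per panel) of the 14 members that passed the threshold with E2 in the epithelial layer, in 4 groups of 3 arrays (horizontal axis: epithelial E2, epithelial vehicle, stromal E2, stromal vehicle). Points are arrays, and bars and whiskers are means and SDs. In every panel the 3 epithelial E2 arrays lie above the 3 epithelial vehicle arrays.

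Glycolytic enzymes accounted for 6 of the 14, with 6 of 11 rising and 0 falling (9 and 0 at an unadjusted p under 0.05) and a median difference of 0.55. Aldoc, the aldolase isoform best known from brain, which splits fructose bisphosphate, measured 9.06, 8.88 and 8.93 in E2 epithelium, against 7.69, 7.60 and 8.33 in vehicle epithelium. That was a rise of 1.08 ± 0.17 (2.12-fold, adjusted p = 0.00735), and the groups did not overlap. Phosphofructokinase commits sugar to glycolysis, and its platelet isoform Pfkp measured 9.89, 9.86 and 9.63 in E2 epithelium, against 8.85, 8.43 and 9.24 in vehicle epithelium (0.95 ± 0.17, adjusted p = 0.0131). The liver isoform Pfkl measured 10.20, 10.16 and 10.26 in E2 epithelium, against 9.48, 9.02 and 9.84 in vehicle epithelium (0.76 ± 0.16, adjusted p = 0.0279). Vehicle array 2 was the lowest of all 6 epithelial arrays for these 3 enzymes.

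Further down the pathway, Pgk1 (phosphoglycerate kinase) measured 12.14, 12.11 and 11.98 in E2 epithelium, against 11.54, 11.16 and 11.60 in vehicle epithelium, a rise of 0.65 ± 0.11 (adjusted p = 0.0107). Tpi1, whose enzyme interconverts the triose phosphates, measured 12.07, 11.83 and 11.74 in E2 epithelium, against 11.37, 11.12 and 11.40 in vehicle epithelium (0.59 ± 0.11, adjusted p = 0.0156). Pgam1, the phosphoglycerate mutase, measured 12.09, 12.12 and 11.93 in E2 epithelium, against 11.53, 11.28 and 11.69 in vehicle epithelium (0.55 ± 0.11, adjusted p = 0.0235). All 3 were between 1.46-fold and 1.57-fold higher, and in none of them did an E2 array reach down to a vehicle array. Aldoa (0.43 ± 0.10, adjusted p = 0.0529), the lactate dehydrogenase Ldha (0.41 ± 0.10, adjusted p = 0.0603) and the pyruvate kinase Pkm (0.40 ± 0.13, adjusted p = 0.142) did not pass, although in all 3 the arrays did not overlap between E2 and vehicle. The hexokinases, which trap glucose in the cell, also did not pass, with 0.05 ± 0.12 for Hk1 and -0.09 ± 0.19 for Hk2. For Hk1 this depended on the probe set. The brightest one, annotated by a single GenBank record, gave 0.05 (adjusted p = 0.907), whereas the dimmer one, annotated by RefSeq and GenBank records, gave 0.64 (adjusted p = 0.0219). The several probe sets of Pgk1, Pgam1, Pkm, Ak4, Bnip3 and Bnip3l did not differ in direction, although the dimmer sets of Ak4 (0.54, adjusted p = 0.0852) and Bnip3 (1.11, adjusted p = 0.0646) did not pass. Some sets of Pgk1, and some of Pgam1, had identical group means and differences, so they cannot count as separate readings.

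The glucose transporters Slc2a1 (0.08 ± 0.12) and Slc2a3 (0.29 ± 0.23) and the lactate exporter Slc16a3 (0.26 ± 0.11) gave 0 of 3 past the threshold by limma, with 1 of 3 higher at an unadjusted p under 0.05 and adjusted p-values from 0.281 to 0.828. Of the regulators of flux, Pfkfb3, whose product makes the activator of phosphofructokinase, had the largest difference of all 31 members. It measured 10.44, 10.44 and 9.25 in E2 epithelium, against 8.99, 8.25 and 8.53 in vehicle epithelium (1.46 ± 0.31, 2.74-fold, adjusted p = 0.0311). E2 array 3 was more than 1 unit below the other E2 arrays and nearer to the highest vehicle array than to them. Pdk1, the kinase that closes pyruvate dehydrogenase, measured 9.06, 9.05 and 9.05 in E2 epithelium, against 8.05, 8.23 and 8.80 in vehicle epithelium (0.69 ± 0.15, adjusted p = 0.0346). Pfkfb4, a relative of Pfkfb3, did not pass (-0.07 ± 0.12, interval -0.33 to 0.18).

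Among the other HIF targets 5 of 13 rose and 0 fell (7 and 0 at an unadjusted p under 0.05), with a median of 0.49. Adm, the vasodilator peptide adrenomedullin, measured 12.18, 12.18 and 11.73 in E2 epithelium, against 10.73, 10.24 and 10.98 in vehicle epithelium. The rise was 1.38 ± 0.19, or 2.60-fold (adjusted p = 0.00349), and the groups were far from overlapping. Vldlr, a lipoprotein receptor, measured 11.15, 11.16 and 11.07 in E2 epithelium, against 9.42, 9.80 and 10.20 in vehicle epithelium (1.32 ± 0.16, 2.50-fold). Its adjusted p of 0.00189 was the lowest among the members in this comparison. Ak4, a mitochondrial adenylate kinase, measured 11.26, 11.28 and 11.03 in E2 epithelium, against 10.30, 9.71 and 10.56 in vehicle epithelium (1.00 ± 0.17, adjusted p = 0.0110).

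Bnip3 and Bnip3l encode mitochondrial outer membrane proteins that mark mitochondria for removal. Bnip3 measured 11.39, 11.31 and 11.01 in E2 epithelium, against 10.23, 9.39 and 10.75 in vehicle epithelium (1.11 ± 0.26, adjusted p = 0.0431), and its vehicle arrays spread over more than 1 unit. Bnip3l measured 12.36, 12.35 and 12.31 in E2 epithelium, against 11.75, 11.80 and 11.99 in vehicle epithelium. The rise was smaller but steadier (0.49 ± 0.08, adjusted p = 0.00735). Hif1a, the HIF subunit itself, measured 11.97, 11.98 and 11.92 in E2 epithelium, against 11.24, 11.49 and 11.70 in vehicle epithelium (0.48 ± 0.11, adjusted p = 0.0383). The oxygen sensors Egln1 (0.56 ± 0.15, adjusted p = 0.0740) and Egln3 (0.34 ± 0.20, adjusted p = 0.459) did not pass. Neither did Ndrg1, a stress-induced differentiation gene (0.59 ± 0.26), the collagen prolyl hydroxylases P4ha1 (0.13 ± 0.10) and P4ha2 (0.16 ± 0.13), Ankrd37 (0.12 ± 0.14), the histone demethylase Kdm3a (-0.09 ± 0.21) or Ddit4, an inhibitor of the growth kinase mTOR (0.09 ± 0.16).

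The number of calls in epithelium leaned on the 2 alike E2 arrays and on the shared estimate of spread. With those arrays averaged into 1, which was chosen after seeing the data, 4 of 31 rose where 0.935% of all probe sets were called, namely Aldoc, Adm, Bnip3l and Vldlr. These 4 kept their calls without any single array, and 4 members passed without E2 array 1 or without E2 array 2, where 0.935% and 0.94% of all probe sets did. Without vehicle array 1, 9 passed, where 1.76% of all probe sets did. The other 10 called members were lost without either of E2 arrays 1 and 2, with adjusted p-values up to 0.168 in fits that left out 1 array. Pfkl, Pgam1, Bnip3, Pdk1 and Hif1a were also lost without vehicle array 1, and Pfkfb3, Pdk1 and Hif1a without vehicle array 2. The smallest estimates in those fits were 0.36 for Hif1a and 0.44 for Pgam1. Fitted on the 6 epithelial arrays alone, limma called 0 of 31 members and 0.209% of all probe sets, the lowest adjusted p of a member being 0.0662 for Vldlr, while 17 members were higher and 0 lower at an unadjusted p under 0.05, against 1062 higher and 1113 lower of all probe sets (9.29%).

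Cell type markers also differed in level among these arrays. Epithelial markers had a median difference of -0.77 with E2 in the epithelial layer, with 17 of 18 measuring lower and 1 past the threshold as lower. Their mean per array was 9.40, 9.62 and 9.73 under E2 and 10.54, 11.16 and 9.50 under vehicle, against 6.57 to 7.01 in the stromal arrays. Stromal markers had a median of 0.35 (2 of 16 past the threshold, both higher), and their mean per array was 10.59, 10.59 and 10.52 under E2 and 9.96, 9.79 and 10.49 under vehicle. Leukocyte markers had a median of 0.64 (1 of 12 past the threshold, higher), with means of 9.55, 9.71 and 8.71 under E2 and 8.94, 8.49 and 8.90 under vehicle. Vehicle array 2, with the highest epithelial and lowest stromal marker mean, was the lowest vehicle array in 23 of the 31 members, and E2 array 3, with the lowest leukocyte mean of the E2 arrays, was the lowest E2 array in 26. Endothelial and smooth muscle markers had medians of 0.01 and -0.13, each with 1 gene past the threshold. The part of cell makeup in the rise was not tested.

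**Figure D2:**
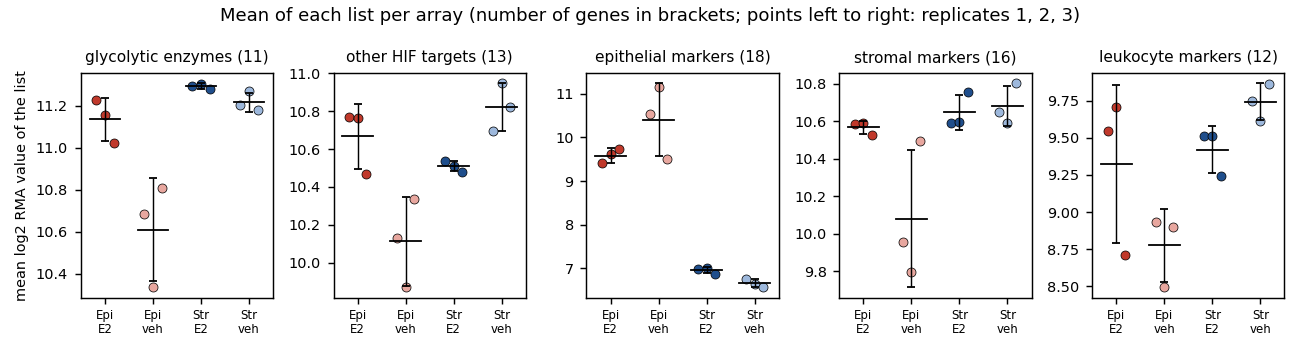
Mean log2 RMA value (vertical axes, a separate scale per panel) of the 11 glycolytic enzymes, the 13 other HIF targets and 3 marker lists in each array, by group (horizontal axis: epithelial E2, epithelial vehicle, stromal E2, stromal vehicle). Points from left to right are replicates 1, 2 and 3, and bars and whiskers are means and SDs. Both member lists are higher in E2 than in vehicle epithelium, while epithelial markers range from 9.50 to 11.16 under vehicle.

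In the stromal layer 0 members rose with E2 and 2 fell by limma, where 1.52% of all probe sets rose and 1.98% fell (3.5% in either direction). At an unadjusted p under 0.05, 1 member was higher and 7 were lower, against 1242 higher and 1676 lower of the 23410 probe sets (12.5% in either direction). The median difference was -0.10, against 0.03 over all probe sets, and 21 of 31 measured lower. All 3 E2 arrays lay below all 3 vehicle arrays in 14 members, against 14.6% of all probe sets, and above them in 5, against 15.9%.

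Egln3, the prolyl hydroxylase that HIF itself induces, measured 9.82, 9.71 and 9.42 in E2 stroma, against 11.17, 11.27 and 11.00 in vehicle stroma. That was a fall by 1.49 ± 0.20, or 2.82-fold (adjusted p = 0.00172), with a gap of more than 1 unit between the lowest vehicle and the highest E2 array. Ddit4 measured 8.69, 8.69 and 8.58 in E2 stroma, against 9.16, 9.81 and 9.62 in vehicle stroma, and fell by 0.88 ± 0.16 (adjusted p = 0.0106). Without stromal vehicle array 3, Ddit4 was not past the threshold (adjusted p = 0.0540), leaving 1 call, whereas Egln3 passed under every alternative tried. Leukocyte markers in these arrays had a median of -0.42 with 0 of 12 past the threshold by limma, and their mean was 9.42 ± 0.16 under E2 and 9.74 ± 0.12 under vehicle (SD, n = 3). Epithelial and stromal markers had medians of 0.17 and -0.06 there, each with 1 gene past the threshold, endothelial markers 0.09 with 1 lower and smooth muscle markers 0.28 with 2 of 7 higher. Their part in these falls was not tested.

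**Figure D3:**
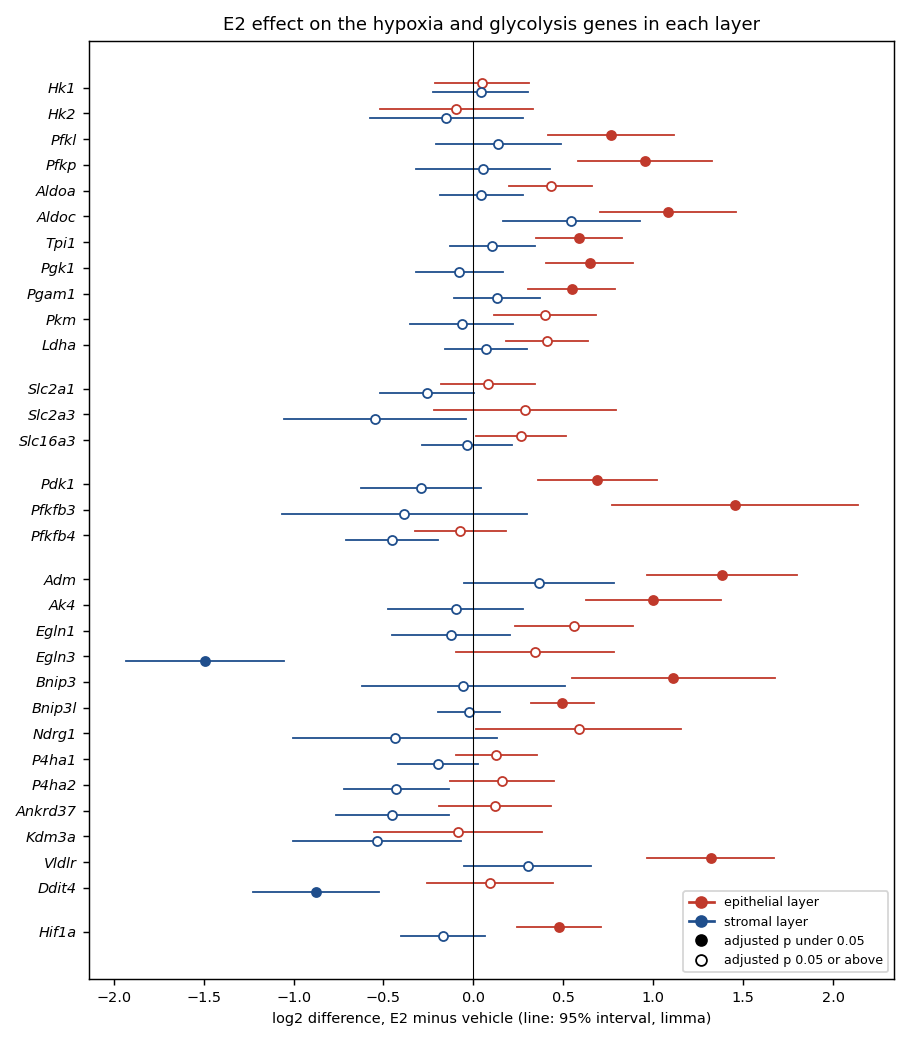
Log2 difference of E2 minus vehicle (horizontal axis) for each of the 31 members (rows, grouped from top as glycolytic enzymes, transporters, regulators of flux, other HIF targets and Hif1a) in the epithelial and stromal layers, with 95% intervals from limma as lines. Filled points passed an adjusted p of 0.05. The 14 filled epithelial points lie right of 0 and the 2 filled stromal points, Egln3 and Ddit4, lie left of it.

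Glycolytic enzymes gave 0 of 11 past the threshold in stroma by limma (1 higher and 0 lower at an unadjusted p under 0.05), with a median of 0.05. Aldoc came closest, at 9.13, 9.18 and 8.98 in E2 stroma, against 8.40, 8.78 and 8.49 in vehicle stroma (0.54 ± 0.17, adjusted p = 0.144), and its arrays did not overlap. Intervals were narrow for the bright enzymes, at -0.32 to 0.16 for Pgk1, -0.13 to 0.34 for Tpi1 and -0.16 to 0.30 for Ldha. The test of the difference between layers, described below, did not pass for these 3 by limma. Its adjusted p was 0.0600 for Pgk1, 0.223 for Tpi1 and 0.427 for Ldha. The transporters and regulators measured lower, with -0.55 ± 0.23 for Slc2a3, -0.26 ± 0.12 for Slc2a1, -0.45 ± 0.12 for Pfkfb4, -0.38 ± 0.31 for Pfkfb3 and -0.29 ± 0.15 for Pdk1, while Slc16a3 was near 0 (-0.03 ± 0.11). None of them passed by limma (adjusted p from 0.0592 to 0.966). Adm (0.37 ± 0.19) and Vldlr (0.30 ± 0.16) measured higher, and P4ha2 (-0.43 ± 0.13), Ankrd37 (-0.45 ± 0.14) and Kdm3a (-0.54 ± 0.21) lower, also without passing. The stromal arrays spread less than the epithelial ones, with a median SD of the members of 0.06 under E2 and 0.10 under vehicle, against 0.12 and 0.24 in epithelium. Fitted on the 6 stromal arrays alone, 7 members passed, where 9.15% of all probe sets did, with Aldoc higher and Egln3, Ddit4, Kdm3a, Slc2a3, Pdk1 and Pfkfb4 lower.

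Whether the E2 effect differed between the layers was tested directly. Only Egln3 passed among the 31 members, where 0.641% of all probe sets had a larger effect in epithelium and 0.269% a smaller one (0.91% in either direction). Its E2 effect was 1.84 ± 0.28 higher in epithelium than in stroma (adjusted p = 0.0135). In E2 epithelium it measured 11.16, 11.24 and 10.38, against 10.65, 10.47 and 10.64 in vehicle epithelium, so that E2 arrays 1 and 2 were above and array 3 was below all vehicle arrays. The call was kept in all 12 fits that left out 1 array (adjusted p up to 0.0474).

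All 31 members had an estimate of this difference above 0, with a median of 0.59, where the median of all probe sets was 0.01 and 12003 of 23410 were above 0. Over the alternatives tried, 29 to 31 of 31 were above 0, with 29 without epithelial vehicle array 2 and 29 without stromal vehicle array 2. Some of these alternatives leave every difference unchanged by construction. At an unadjusted p under 0.05, 26 members had a larger effect in epithelium and 0 a smaller one, against 1396 larger and 1065 smaller among the 23410 probe sets (10.5%). The next lowest adjusted p-values were 0.0600 for Pgk1 (0.73 ± 0.16), 0.0611 for Bnip3l (0.52 ± 0.11), 0.0629 for Pdk1 (0.98 ± 0.21), 0.0651 for Ak4 (1.10 ± 0.24) and 0.0680 for Vldlr (1.02 ± 0.23), none of which passed. In 6 members, namely Pgk1, Pkm, Pdk1, Ak4, P4ha2 and Hif1a, the E2 arrays lay wholly above the vehicle arrays in epithelium and wholly below them in stroma. Each part alone was shown by 6.95% (above, epithelium) and 14.6% (below, stroma) of all probe sets. How many probe sets showed both parts was not counted, so the 6 cannot be set against a share. The count of members past the threshold was 8 without epithelial E2 array 3, 12 without epithelial vehicle array 3, 3 without epithelial vehicle array 2 and 2 without stromal vehicle array 1. The shares of all probe sets called in these fits are not given here, so the counts are no result about the members alone. Marker lists differed in this comparison as well, with 18 of 18 epithelial markers below 0 (median -1.07) 12 of 12 leukocyte markers above 0 (median 0.95), 15 of 16 stromal markers above 0 (median 0.42) and 6 of 7 smooth muscle markers below 0 (median -0.41), and their part was not tested.

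Under vehicle, 22 of 31 members were lower in the epithelial than in the stromal layer by limma and 1 was higher, where 14.1% and 7.27% of all probe sets were (21.4% in either direction), and the median difference was -0.61 against 0.02 over all probe sets. All epithelial arrays lay below all stromal arrays in 26 members and above them in 1, against 21.3% and 14.6% of all probe sets. The largest differences were in Adm, Pfkp, Slc2a3, Vldlr, Bnip3 and Pdk1. Adm measured 10.73, 10.24 and 10.98 in vehicle epithelium, against 12.22, 12.65 and 12.37 in vehicle stroma (-1.76 ± 0.19, 3.39-fold lower, adjusted p = 0.000103). Pfkp measured 8.85, 8.43 and 9.24 in vehicle epithelium, against 10.44, 10.70 and 10.57 in vehicle stroma (-1.73 ± 0.17). Slc2a3, the high-affinity glucose transporter, measured 10.23, 9.59 and 10.38 in vehicle epithelium, against 11.47, 11.76 and 11.84 in vehicle stroma (-1.63 ± 0.23, adjusted p = 0.000607).

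For these 3 genes no epithelial array reached any stromal array under vehicle. Vldlr measured 9.42, 9.80 and 10.20 in vehicle epithelium, against 11.18, 11.44 and 11.50 in vehicle stroma (-1.57 ± 0.16). Bnip3 measured 10.23, 9.39 and 10.75 in vehicle epithelium, against 11.43, 11.58 and 11.46 in vehicle stroma (-1.37 ± 0.26). Pdk1 measured 8.05, 8.23 and 8.80 in vehicle epithelium, against 9.42, 9.48 and 9.31 in vehicle stroma (-1.04 ± 0.15). They too were separated by layer without overlap, and adjusted p-values of the 6 ran from 5.51e-05 to 0.00318. Of the glycolytic enzymes 8 of 11 were lower in epithelium and 0 higher, the exceptions being Hk1, Hk2 and Ldha (-0.29 ± 0.10, adjusted p = 0.0749), and Hif1a was lower as well (-0.66 ± 0.11, adjusted p = 0.00135). The exception of Hk1 depended on the probe set, the dimmer one giving -1.01 (adjusted p = 0.000275) and the one used -0.08. Ddit4 alone was higher in epithelium, at 10.36, 10.05 and 10.30 in vehicle epithelium, against 9.16, 9.81 and 9.62 in vehicle stroma (0.70 ± 0.16, adjusted p = 0.00890).

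Of the 23 layer calls under vehicle, 18 were kept without any single array. Aldoa was lost without stromal vehicle array 1, Ankrd37 without stromal vehicle array 2, Aldoc without epithelial vehicle array 1 or stromal vehicle array 2, Slc16a3 without epithelial vehicle array 1 or stromal vehicle arrays 2 or 3, and Pfkfb3 without epithelial vehicle arrays 2 or 3 or stromal vehicle arrays 2 or 3. These calls come from the fit without a replicate block. Residuals of same-numbered vehicle arrays correlated weakly between the 2 layers (r = 0.17, 0.14 and 0.13). With that number as a block in limma, Pfkfb3 did not pass (-1.01, adjusted p = 0.0579) and Egln3 did (-0.56, adjusted p = 0.0281). Other adjusted p-values moved either way, from 0.000103 to 0.00135 for Adm and from 0.0219 to 0.0143 for Slc16a3. Leukocyte markers were also lower in the epithelial layer under vehicle (7 of 12 past the threshold as lower and 1 as higher, median -1.26), as were smooth muscle markers (6 of 7, median -1.04). Stromal markers were mixed, with 8 of 16 past the threshold as lower and 0 as higher, while 6 measured higher (median -0.52). The part of these markers was not tested.

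Under E2, 5 of 31 members were lower in epithelium and 2 higher by limma, where 9.18% and 4.43% of all probe sets were (13.6% in either direction), and the median difference was -0.07 against 0.02 over all probe sets. Epithelial arrays lay wholly below the stromal arrays in 10 members and wholly above them in 3, against 21.3% and 17.6% of all probe sets. This comparison shares the E2 epithelial arrays, and the one under vehicle the vehicle epithelial arrays, with the E2 comparison in epithelium, so the 3 are not independent. Side by side, the layer difference of Pfkl was -0.20 under E2 and -0.83 under vehicle, that of Pgk1 -0.15 under E2 and -0.88 under vehicle, that of Hif1a -0.01 under E2 and -0.66 under vehicle, and that of Bnip3 -0.20 under E2 and -1.37 under vehicle. None of these 4 passed under E2. The change in a gene's layer difference is the same quantity as the difference of its E2 effect between layers. That test did not pass for any of the 4 by limma. Its adjusted p was 0.305 for Pfkl, 0.0600 for Pgk1, 0.0856 for Hif1a and 0.210 for Bnip3. Pfkp (-0.83 ± 0.17), Slc2a3 (-0.79 ± 0.23), Adm (-0.75 ± 0.19), Vldlr (-0.55 ± 0.16) and P4ha2 (-0.44 ± 0.13) were lower in epithelium under E2, with adjusted p-values from 0.00689 to 0.0483. Ddit4 (1.67 ± 0.16, 3.18-fold, adjusted p = 5.47e-05) and Egln3 (1.28 ± 0.20, adjusted p = 0.00143) were higher in epithelium, where Ddit4 measured 10.35, 10.51 and 10.12 in E2 epithelium, against 8.69, 8.69 and 8.58 in E2 stroma. Pfkp, Egln3 and Ddit4 kept their calls without any single array. Vldlr and P4ha2 lost theirs in all 6 fits without 1 array, Slc2a3 in all but the one without epithelial E2 array 1, and Adm without epithelial E2 array 3 or stromal E2 arrays 1 or 2 (adjusted p up to 0.190). The number of calls was 3 without stromal E2 array 1 or 2, 4 without stromal E2 array 3 and 4 without epithelial E2 array 2. The shares of all probe sets called in these fits are not given here, so these counts are no result about the members alone. In this comparison 16 of 18 epithelial markers were past the threshold as higher in the epithelial layer (median 2.68), 7 of 7 smooth muscle markers as lower (median -1.20), 3 of 16 stromal markers as lower and 2 as higher (median -0.12), and 2 of 12 leukocyte markers as lower and 1 as higher (median -0.17), and their part was not tested.

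**Figure D4:**
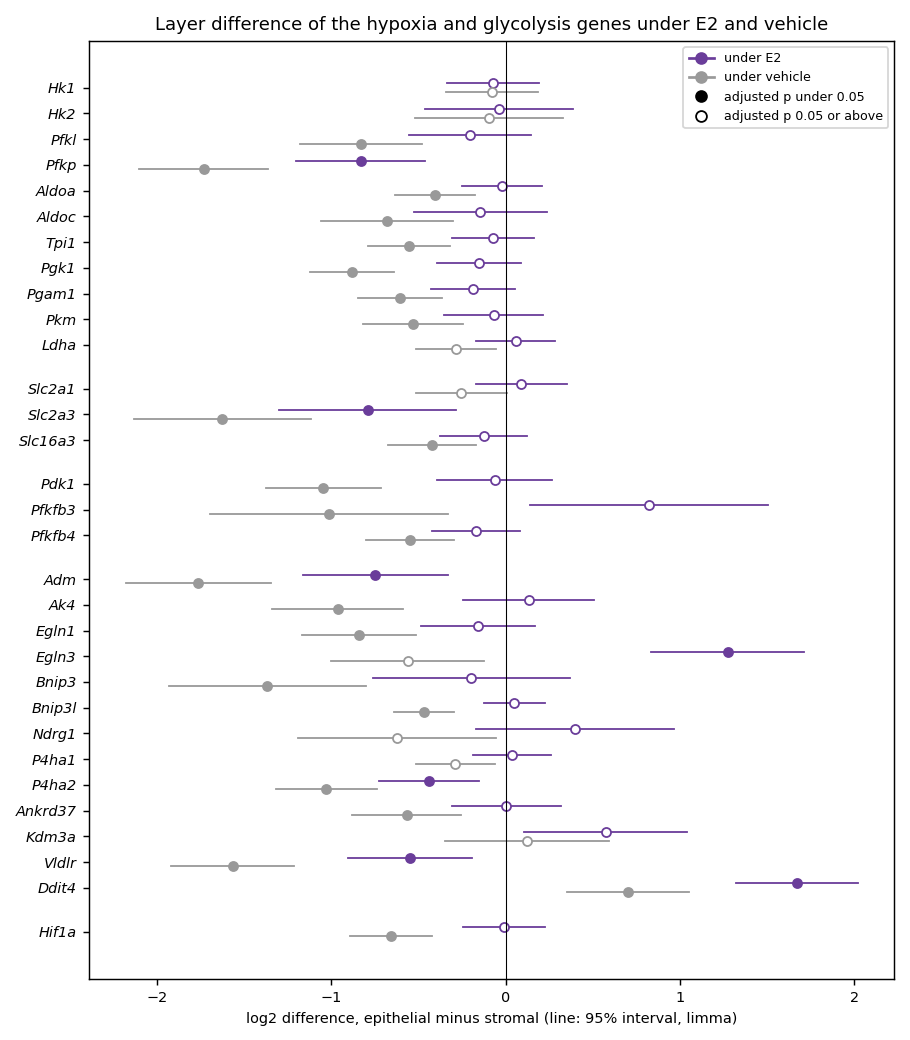
Log2 difference of epithelial minus stromal layer (horizontal axis) for each of the 31 members (rows, grouped as glycolytic enzymes, transporters, regulators of flux, other HIF targets and Hif1a) under E2 and under vehicle, with 95% intervals from limma as lines. Filled points passed an adjusted p of 0.05, which 7 members did under E2 and 23 under vehicle. Most grey vehicle points lie left of 0, while the median of the E2 points is -0.07.

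Other genes of the pathway were taken from lists written from general knowledge. Among 10 HIF factors and oxygen-sensing genes, 2 rose in epithelium and 0 fell, and 1 rose in stroma. Of all probe sets tested, 2.9% were called in epithelium and 3.5% in stroma, in either direction. Whether the counts of these short lists depart from such shares was not tested. Arnt, the HIF partner subunit, measured 10.47, 10.57 and 10.25 in E2 epithelium, against 9.87, 9.94 and 10.09 in vehicle epithelium (0.46 ± 0.10, adjusted p = 0.0311). Cited2, a HIF-induced protein that competes with HIF for its coactivator, rose by 0.73 ± 0.13 in epithelium (adjusted p = 0.0153). Epas1, which encodes the HIF-2 alpha subunit, measured 11.16, 11.26 and 11.39 in E2 stroma, against 9.62, 10.62 and 10.05 in vehicle stroma (1.17 ± 0.28, adjusted p = 0.0395), and gave 1.03 ± 0.28 in epithelium (adjusted p = 0.0742). The Epas1 call was lost without any 1 of the 3 stromal E2 arrays or stromal vehicle arrays 1 or 3 (adjusted p up to 0.163). Arnt and Cited2 were lost without either of epithelial E2 arrays 1 and 2, and Arnt also without epithelial vehicle arrays 1 or 2 (adjusted p up to 0.140).

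Of 27 further HIF targets, 2 rose and 0 fell in epithelium (13 and 0 at an unadjusted p under 0.05), with a median of 0.33. In stroma 1 rose and 2 fell, with a median of -0.19. Of all probe sets, 2.9% were called in epithelium (16.2% at an unadjusted p under 0.05) and 3.5% in stroma. Car9, the carbonic anhydrase that is among the most specific hypoxia markers, measured 10.06, 9.80 and 10.57 in E2 epithelium, against 7.82, 9.11 and 9.03 in vehicle epithelium (1.49 ± 0.31, 2.80-fold, adjusted p = 0.0275). Its stromal arrays lay at 7.38, 7.42 and 7.74 under E2 and 7.33, 7.75 and 7.69 under vehicle, below all 6 epithelial arrays. Pgm1, which feeds glycogen-derived sugar into glycolysis, rose by 0.67 ± 0.12 in epithelium (adjusted p = 0.0152). Both calls were lost without epithelial E2 array 1 or 2 (adjusted p up to 0.0917).

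In stroma the related carbonic anhydrase Car12 measured 9.60, 9.53 and 10.12 under E2, against 7.44, 9.08 and 8.11 under vehicle (1.54 ± 0.33, adjusted p = 0.0265), a call that was kept, among the fits without 1 array, only without stromal vehicle array 2. Insig2, a brake on sterol synthesis, measured 10.47, 10.49 and 10.35 in E2 stroma, against 11.40, 11.43 and 11.51 in vehicle stroma, and fell by 1.01 ± 0.12 (adjusted p = 0.000971). Ppp1r3c, a glycogen-targeting subunit of protein phosphatase 1, measured 6.52, 6.39 and 6.95 in E2 stroma, against 7.74, 8.58 and 7.92 in vehicle stroma, and fell by 1.46 ± 0.31 (adjusted p = 0.0257). The fall of Insig2 was kept in all 6 fits without 1 array, and that of Ppp1r3c was lost without stromal E2 arrays 1 or 2 or stromal vehicle arrays 2 or 3 (adjusted p up to 0.117). For both genes the E2 effect also differed between layers, by 0.97 ± 0.17 for Insig2 (adjusted p = 0.0258) and 2.18 ± 0.44 for Ppp1r3c (adjusted p = 0.0489), being higher in epithelium. Without 1 array these differences passed in 3 of 12 fits for Insig2 and 2 of 12 for Ppp1r3c.

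**Figure D5:**
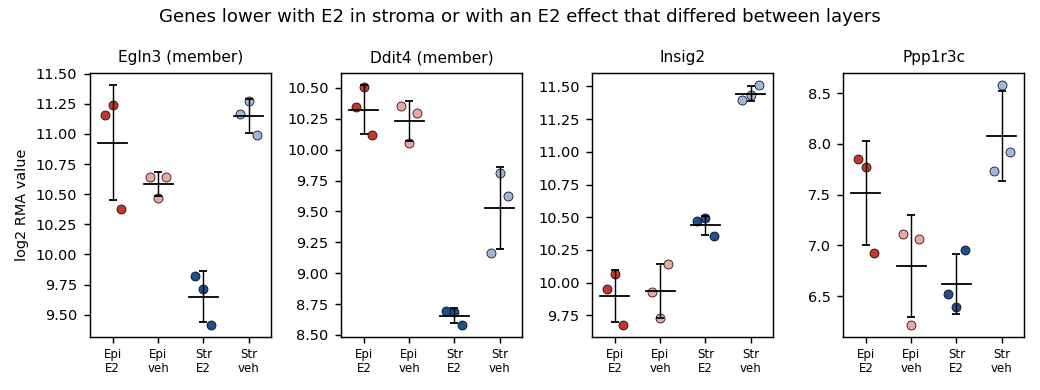
Log2 RMA values (vertical axes, a separate scale per panel) of the members Egln3 and Ddit4 and of Insig2 and Ppp1r3c, 2 further HIF targets, in 4 groups of 3 arrays (horizontal axis: epithelial E2, epithelial vehicle, stromal E2, stromal vehicle). Points are arrays, and bars and whiskers are means and SDs. In each panel the 3 stromal E2 arrays lie below the 3 stromal vehicle arrays, and the epithelial E2 and vehicle arrays overlap.

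Other glycolytic isoenzymes and neighbours, 12 of them measured, had 1 rising and 0 falling in epithelium and 2 rising and 1 falling in stroma, with medians of 0.03 and 0.20. The shares of all probe sets called were 2.9% in epithelium and 3.5% in stroma, also for the 17 and 6 genes that follow. Pgam2, the muscle phosphoglycerate mutase, was the riser in epithelium (0.74 ± 0.11, adjusted p = 0.00614), from low signals of 7.33 ± 0.19 under E2 and 6.59 ± 0.17 under vehicle (SD, n = 3). In stroma Slc16a1, a lactate and pyruvate transporter, measured 9.14, 9.22 and 9.75 under E2, against 8.10, 8.16 and 8.31 under vehicle (1.18 ± 0.21, adjusted p = 0.0101), a call that was lost without stromal vehicle array 1. Ldhb, the lactate dehydrogenase form that favours pyruvate, gave 0.50 ± 0.11 in stroma (adjusted p = 0.0275), a call lost in all 6 fits without 1 array (adjusted p up to 0.115). Bpgm, which makes bisphosphoglycerate, fell by 0.85 ± 0.13 in stroma (adjusted p = 0.00397). Among 17 genes of pyruvate entry and the citric acid cycle, 1 rose in epithelium, namely Pdk4, a pyruvate dehydrogenase kinase, at 10.80, 10.69 and 10.30 in E2 epithelium, against 9.47, 8.20 and 9.87 in vehicle epithelium (1.41 ± 0.32, adjusted p = 0.0411). That call was lost without epithelial E2 arrays 1 or 2 or vehicle array 1 (adjusted p up to 0.162). By limma 0 of the 17 passed in stroma. At an unadjusted p under 0.05, 4 were higher and 0 lower there, against 12.5% of all probe sets in either direction. The 6 gluconeogenic genes gave 0 past the threshold by limma in either layer, and 0 at an unadjusted p under 0.05.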

How the data were processed

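The Affymetrix Mouse Gene 1.0 ST table holds deposited log2 signals, made by the authors with RMA per the submitters' processing notes, with version and settings not given in the sources used here. The table held 35556 probe sets and 12 arrays, with 0 identical pairs of arrays. Groups and replicate numbers came from the sample titles. Symbols came from the platform annotation, with 23410 probe sets having a symbol, 21789 exactly 1, and 21698 of the latter matched to RefSeq (GRCm38.p6). A gene was its brightest single-symbol probe set, 999 genes having several.

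The model was limma 3.58.1 under R 4.3.3 (lmFit and eBayes, 4 groups, 8 residual and 3.27 prior degrees of freedom, two-sided), unfiltered and not renormalized, with a spread shared by the 4 groups, and adjusted over 23410 probe sets in each of 5 comparisons. The procedure was tested on simulated data. Since no label names separate cultures or animals, p-values reflect the spread between these arrays alone, which may be technical. The members and lists were chosen with earlier results of these data known. Of the members, the text gives every array for those past the threshold in an E2 comparison or its difference between layers and for the 6 with the largest layer difference under vehicle, and it names the genes of the other lists that passed there.

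Residuals of same-numbered arrays correlated above 0.1 in every pair for the vehicle layers alone (r = 0.17, 0.14 and 0.13). Between epithelial E2 and vehicle arrays r was -0.42, 0.27 and 0.27. No label names a culture or animal, so a pairing is neither shown nor excluded in any comparison. The main fit had no replicate block, also between the vehicle layers, and the block was an alternative throughout. The other alternatives were a filter, all probe sets, 3 scalings, a variance trend, array weights, gene means, thresholds, single-comparison fits, leaving out each array and, chosen after seeing the data, averaging the alike E2 arrays.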

Additional observations from a re-analysis of the deposited data

Results flagged for a closer look

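For 3 genes the test of the difference itself found that the E2 effect differed between the layers. For Egln3 the difference, epithelial minus stromal, was 1.84 (adjusted p = 0.0135), from an effect of 0.34 in epithelium and -1.49 in stroma. For Insig2 it was 0.97 (adjusted p = 0.0258), from -0.04 and -1.01 in the same layers. For Ppp1r3c it was 2.18 (adjusted p = 0.0489), from 0.72 in epithelium and -1.46 in stroma. Egln3 is a member, and the others belong to the list of further HIF targets. The call for Egln3 was kept in 25 of 26 alternatives. Those for Insig2 and Ppp1r3c were kept in only 11 and 8 of 26, and so depended on the arrays and settings.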

How the results depend on the processing

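Over all alternatives, 984 of 1242 values of called genes kept their side of the threshold, 258 kept only their direction and 0 reversed. Only genes called in the main fit enter these totals. The thresholds, the filter, all probe sets, the variance trend, the replicate blocks and the single-comparison fits leave a difference unchanged by construction. A reversal was not possible there, so the 0 says little about direction. Members called numbered 4 to 18 in epithelium, 1 to 3 in stroma, 1 to 12 for the difference between layers, 19 to 25 between layers under vehicle and 3 to 5 under E2 when 1 array was left out. The share of all probe sets called moved between such fits as well, in epithelium from 0.935% without E2 array 1 to 6.98% without vehicle array 3. A change in these member counts is therefore not particular to the members. At a threshold of 0.01 the counts were 4 in epithelium, 1 in stroma, 0 for the difference between layers and 3 between layers under E2. At 0.1 it was 9 for the difference, as fewer or more genes pass by construction. In epithelium 0.897% of all probe sets passed at 0.01. On the 6 arrays of the comparison the member counts were 0 in epithelium, where 0.209% of all probe sets passed, and 7 in stroma. With array weights 13 passed in stroma, 24 for the difference and 16 between layers under E2, where 19.2%, 19.2% and 50.4% of all probe sets did. For the difference, 3 passed with quantile scaling and 3 with a variance trend and robust prior. Between layers under E2, 4 passed over all probe sets of the table and 3 with the stromal E2 arrays 1 and 2 averaged. With the epithelial E2 arrays 1 and 2 averaged, 4 passed in epithelium, where 0.935% of all probe sets did. Where no share of all probe sets stands beside a count, that count is no result about the members alone. Except where stated, the cause was not tested. Scaling to reference genes moved the median of all probe sets in epithelium to -0.07 against 0.03. The members' median was 0.37 there with 10 called, where 3.9% of all probe sets were called. Between layers under E2 it turned the members' median to 0.0378, with all probe sets at 0.13.

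Same-numbered arrays correlated above 0.1 in every pair only between the vehicle layers, which does not establish a pairing. There the replicate block left 23 members called, 22 of them the same as in the main fit without a block. As an alternative, the block within each layer called 10 members in epithelium, 2 in stroma and 1 for the difference, and 7 within treatment between layers under E2. With the number over all 12 arrays these were 11, 3, 1 and 6, with 25 under vehicle. In epithelium 1.87% of all probe sets were called with the block within each layer and 2.86% with the number over all 12 arrays. The other shares are not given here, so the other counts are no result about the members alone. Arrays limit these results through their number, and signals near 7, such as those of Pfkfb4, Ankrd37 and Bpgm, may understate differences since background was not tested.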
